A study of Mus musculus with 12 samples.

Results

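The interferon regulatory factors (IRFs) were followed as a family in macrophages given a β2-adrenergic agonist. The family was defined by gene symbol: *Irf1*, *Irf2*, *Irf3*, *Irf4*, *Irf5*, *Irf7*, *Irf8* and *Irf9*, 8 of the 53379 genes in the count table, and all 8 were among the 12386 genes expressed well enough to be tested. The set was put together around *Irf4*, which was picked because its mRNA fell 1 h after treatment. Its values at that time are therefore given as a description without a test, and every count of members below is of the other 7.

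The cells were bone marrow-derived macrophages (BMDMs) from 4 C57Bl/6J mice, described in the methods as males of 8 to 20 weeks. Marrow cells were grown for 1 week in medium conditioned by L929 fibroblasts, a source of macrophage colony-stimulating factor, so they are a model of macrophages in culture and not of a tissue population. From each mouse there was 1 untreated culture, 1 culture given 1 µM fenoterol for 1 h and 1 given it for 4 h, which makes n = 4 per group and 12 libraries of poly(A) RNA. Fenoterol activates the β2-adrenergic receptor, which raises cAMP. The labels give no time at which the untreated cells were collected, so hours in culture and hours of fenoterol cannot be told apart.

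IRFs are transcription factors that share an amino-terminal DNA-binding domain and bind interferon-stimulated response elements and related sites. IRF3, IRF5 and IRF7 wait in the cytoplasm and are activated by phosphorylation downstream of Toll-like receptors and nucleic acid sensors, whereas IRF9 joins STAT proteins to carry the type I interferon signal. IRF8 is a lineage factor of monocytes and macrophages and, like IRF4, binds many sites only together with PU.1 or AP-1 proteins; IRF1 and IRF2 occupy the same elements as an activator and a largely repressive partner.

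The 12 libraries held between 14580533 and 24153284 counted reads. The 8 macrophage markers examined were all tested and together held 701520 to 852250 normalized counts per library, most of them from *Lyz2*. They were not steady: 1 rose and 1 fell at 1 h, and 3 rose and 4 fell at 4 h. *Cd14*, the lipopolysaccharide co-receptor, went from a mean of 12816 normalized counts to 66961 at 1 h and 73277 at 4 h, *Mertk*, a receptor for apoptotic cells, from 3856 to 3366 and 1351, and *Fcgr1*, an IgG receptor, from 5387 to 8871 at 4 h. Most markers of other lineages were too low to be tested. Those tested were 1 of 7 for dendritic cells, 1 of 6 for B and plasma cells, 0 of 5 for T and NK cells, 4 of 6 for neutrophils and their progenitors, 3 of 4 for stromal cells, 0 of 3 for erythroid cells and 1 of 4 for mast cells and eosinophils, and none of these passed at 1 h or 4 h. The summed dendritic cell markers lay at 19.3 to 42.0 normalized counts in untreated cells, 18.6 to 25.9 at 1 h and 9.25 to 27.1 at 4 h, with *Cd209a* and *Ccr7* at no more than 3 counts in any library. Those of B and plasma cells, mostly *Cd79b*, lay at 138 to 201, 129 to 174 and 151 to 234, with *Pax5* at no more than 3 counts. All 3 erythroid markers were listed at 0. Stromal markers held 414 to 1316 normalized counts in untreated cells, 633 to 1136 at 1 h and 443 to 1228 at 4 h, and their part in the results was not tested.

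The mRNAs of *Irf4*, *Irf8* and *Irf1* were lower after fenoterol at both times. *Irf9* fell and *Irf5* rose by small amounts at 1 h, *Irf2* rose by a small amount at 4 h, and *Irf3* passed no test. *Irf7* differed widely from mouse to mouse. At 4 h it was higher in 4 of 4 mice, and passed with the mouse as a block but not in the main fit. The 5′ flanks of the 3 members that were low at both times and of *Irf7* are shown first, because these are the members on which the comparisons turn. Each is the RefSeq window on GRCm38.p6 from 250 bases before to 50 bases after the annotated start, written 5′ to 3′ on the gene's strand. For *Irf8* and *Irf1*, which have 2 annotated starts, the upstream one is given. Capitals mark matches to the motifs searched.

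Irf4, chr13:30748983-30749282, plus strand: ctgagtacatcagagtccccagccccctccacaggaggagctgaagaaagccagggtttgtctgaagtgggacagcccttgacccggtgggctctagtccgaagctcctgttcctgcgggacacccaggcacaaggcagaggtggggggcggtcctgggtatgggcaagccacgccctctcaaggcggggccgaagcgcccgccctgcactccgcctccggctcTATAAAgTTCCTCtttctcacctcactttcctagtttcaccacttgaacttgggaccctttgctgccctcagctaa

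Irf8, chr8:120736108-120736407, plus strand: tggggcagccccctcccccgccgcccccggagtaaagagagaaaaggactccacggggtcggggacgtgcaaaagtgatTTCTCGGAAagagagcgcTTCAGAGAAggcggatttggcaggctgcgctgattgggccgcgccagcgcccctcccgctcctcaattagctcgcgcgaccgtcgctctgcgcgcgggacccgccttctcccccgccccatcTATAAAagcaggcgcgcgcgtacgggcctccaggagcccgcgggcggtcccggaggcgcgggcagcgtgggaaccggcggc

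Irf1, chr11:53769764-53770063, plus strand: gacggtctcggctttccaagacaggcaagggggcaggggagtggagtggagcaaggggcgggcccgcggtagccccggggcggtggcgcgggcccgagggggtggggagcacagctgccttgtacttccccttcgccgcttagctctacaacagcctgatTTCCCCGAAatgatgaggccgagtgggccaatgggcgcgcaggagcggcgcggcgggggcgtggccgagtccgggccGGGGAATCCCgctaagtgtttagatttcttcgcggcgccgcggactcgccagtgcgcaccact

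Irf7, chr7:141266375-141266674, minus strand: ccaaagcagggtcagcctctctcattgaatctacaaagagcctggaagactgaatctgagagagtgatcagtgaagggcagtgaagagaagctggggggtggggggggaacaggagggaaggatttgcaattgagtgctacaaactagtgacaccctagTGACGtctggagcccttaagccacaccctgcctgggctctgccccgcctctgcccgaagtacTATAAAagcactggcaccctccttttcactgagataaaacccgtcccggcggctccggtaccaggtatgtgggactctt

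The search covered both strands for the cAMP response element TGACGTCA and its core TGACG, the interferon-stimulated response element (GAAA, then 2 bases of any kind, then GAAA), the STAT-binding GAS element TTCNNNGAA, the NF-κB consensus, the PU.1 core GAGGAA, the E-box CACGTG and the TATA box TATAAA. The full cAMP element contains the core, so these 2 motifs overlap by construction. The *Irf4* window held a PU.1 core that starts at −19 and a TATA box at −26. That of *Irf8* held GAS elements at −171 and −153 and a TATA box at −31, and that of *Irf1* a GAS element at −90 and an NF-κB match at −13. In the *Irf7* window there were a TGACG core at −91 and a TATA box at −29. Such matches are common: over 32851 windows of this kind, 20.8% held TGACG, 8.3% a GAS element, 8.46% the NF-κB consensus, 28.3% GAGGAA, 13.6% TATAAA, 7.15% CACGTG, 3.44% the interferon-stimulated response element and 1.79% the full cAMP element. The full cAMP element was in none of the members' windows. Among members not printed, the *Irf2* window held an interferon-stimulated response element at −241, a GAS element at −224, an NF-κB match at −17 and PU.1 cores at −91 and 13, those of *Irf9* held PU.1 cores only, and those of *Irf3* and *Irf5* held no match.

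*Irf4* (ENSMUSG00000021356; GRCm38 chromosome 13, 30749226 to 30766976, plus strand) encodes a factor of lymphoid cells and of alternatively activated macrophages and had the lowest mRNA level per exon length of the 8. Normalized counts in mice 1 to 4 were 270.8, 490.1, 348.0 and 517.5 in untreated cells. After 1 h of fenoterol they were 19.5, 47.3, 22.5 and 51.2, and after 4 h they were 36.5, 64.7, 67.5 and 56.9. All 8 treated libraries lay below all 4 untreated ones, while the ranges at 1 h and 4 h overlapped. The mean was 407 ± 117 (SD, n = 4) untreated and 35.1 ± 16.4 at 1 h, an 11.6-fold difference (log2 fold change −3.53 ± 0.30, SE), and the 4 mice lay between −3.95 and −3.34. At 4 h the mean was 56.4 ± 14.0. Against the untreated libraries, which also entered the contrast that picked the gene, this was 7.16-fold lower (log2 fold change −2.84 ± 0.28, adjusted p = 1.58e-06). The step from 1 h to 4 h contains the 1 h values by which the gene was picked, so it is given as a description only. The difference was 0.69 ± 0.33 on the log2 scale, with a 95% interval of −0.01 to 1.40, and it was positive in 4 of 4 mice (0.15 to 1.58). Without mouse 3, which had the largest step, it was 0.42, with or without the mouse as a block. The treated values rest on few reads, 19 to 50 raw counts at 1 h and 35 to 73 at 4 h, against 313 to 481 in untreated cells. In these bulk samples fewer cells containing *Irf4* mRNA and less of it per cell cannot be told apart.

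**Figure D1:**
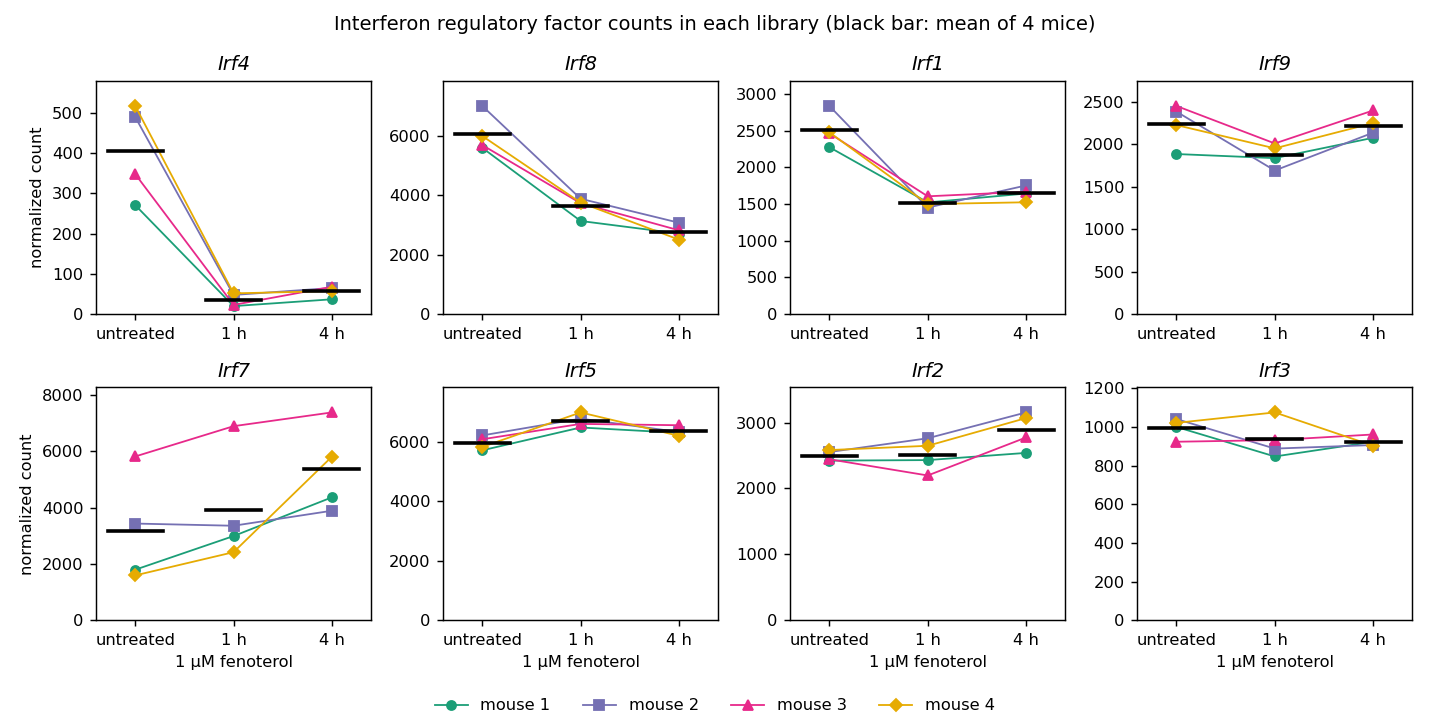
Normalized counts of the 8 members (axes from 0, scaled to each gene) in untreated cells and at 1 h and 4 h, with a line and symbol for each of the 4 mice and black bars at the group means. Irf4 drops in every mouse, from a mean of 407 to 35.1 at 1 h, Irf8 steps down at both times, and the Irf7 lines stand apart from mouse to mouse.

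*Irf8* (ENSMUSG00000041515; chromosome 8, 120736358 to 120756694, plus strand) was the abundant member that fell furthest. In mice 1 to 4 it held 5590.9, 7000.3, 5683.8 and 5989.3 normalized counts in untreated cells. It held 3129.4, 3877.1, 3728.3 and 3747.4 at 1 h, then 2705.8, 3070.4, 2815.3 and 2501.3 at 4 h. The 3 groups did not overlap, and the values stepped down at each time in every mouse. The log2 fold change against untreated cells was −0.74 ± 0.087 (SE) at 1 h (1.68-fold lower; adjusted p = 1.61e-05) and −1.13 ± 0.087 at 4 h (2.19-fold lower; adjusted p = 1.05e-07). The further fall from 1 h to 4 h was −0.38 ± 0.087 (adjusted p = 0.00279).

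*Irf1* (ENSMUSG00000018899; chromosome 11, 53770014 to 53778374, plus strand), an early target of interferon γ signalling, fell by a like amount at 1 h, without a further fall by 4 h. Untreated cells of mice 1 to 4 had 2275.1, 2837.4, 2464.5 and 2477.7 normalized counts. The values were 1521.6, 1451.4, 1605.0 and 1499.2 at 1 h and 1643.1, 1753.1, 1667.5 and 1523.7 at 4 h. Every treated library was below every untreated one, and the 1 h and 4 h ranges overlapped. The log2 fold change was −0.73 ± 0.068 (SE) at 1 h (1.65-fold lower; adjusted p = 1.59e-06) and −0.61 ± 0.067 at 4 h (adjusted p = 4.34e-06), and the difference between the times was 0.12 (95% interval −0.03 to 0.26, adjusted p = 0.200; 0.21 and 0.0221 with libraries scaled by total count alone).

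The courses of *Irf8* and *Irf1* were set side by side after their values were seen, so the comparison is a description without a test. The log2 ratio of *Irf8* to *Irf1* counts was 1.27 ± 0.045 (SD, n = 4) in untreated cells, 1.25 ± 0.16 at 1 h and 0.75 ± 0.043 at 4 h. At 4 h it was lower than in untreated cells by 0.52 and lower than at 1 h by 0.50, in 4 of 4 mice each time. At 1 h the ratio differed by −0.02. The ratio of *Irf8* to *Irf4*, the other member that binds with PU.1, was larger after treatment: per exon length, the *Irf8* level was 8.04 to 14.4 times that of *Irf4* in untreated cells, 50.8 to 115 times at 1 h and 29.0 to 51.6 times at 4 h. The fall by which *Irf4* was picked is part of these ratios, so they are a description.

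Among the 7 members other than *Irf4*, 4 passed the test at 1 h: *Irf1*, *Irf8* and *Irf9* were lower and *Irf5* was higher. Of all genes tested, 20.1% passed at that time (10.0% higher, 10.1% lower). At 4 h against untreated cells 3 of the 7 passed, *Irf1* and *Irf8* lower and *Irf2* higher, beside 40.0% of all genes (19.7% higher, 20.4% lower), and at 4 h against 1 h 2 passed, *Irf8* lower and *Irf9* higher, beside 38.5% (18.7% higher, 19.8% lower). With the mouse as a block 4 of the 7 passed in each comparison, beside 27.0% of all genes at 1 h, 47.4% at 4 h and 46.6% between the times. The groups did not overlap for 3 of the 7 at 1 h (*Irf1*, *Irf5* and *Irf8*; 23.0% of all genes), for 2 at 4 h (*Irf1* and *Irf8*; 37.6%) and for 2 between 1 h and 4 h (*Irf8* and *Irf9*; 35.9%). Each of these shares of members rests on only 7 genes.

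**Figure D2:**
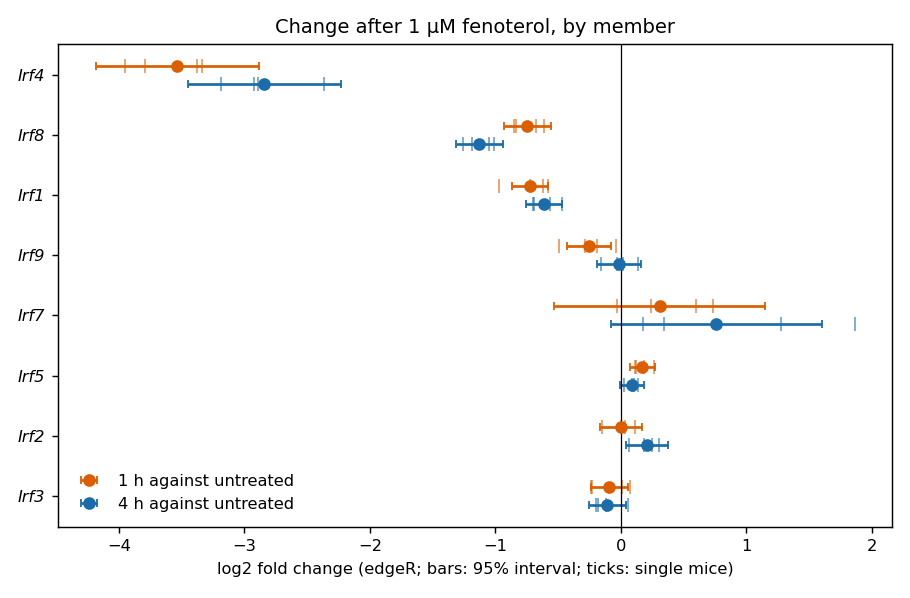
Log2 fold change of each member at 1 h (orange) and 4 h (blue) against untreated cells, as circles with 95% intervals from the quasi-likelihood fit and short ticks for single mice. Irf4, Irf8 and Irf1 lie left of 0 at both times, while the Irf7 interval at 4 h runs from −0.08 to 1.61.

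Among the members that relay signals from pattern recognition receptors, *Irf5* rose slightly at 1 h, *Irf3* passed no test, and *Irf7* was higher at 4 h in every mouse and passed only when the mouse was a block or when certain libraries or the filter on low counts were left out. *Irf5* (ENSMUSG00000029771; chromosome 6, 29526625 to 29541871, plus strand), which drives inflammatory cytokine genes downstream of Toll-like receptors, had 5713.8, 6214.3, 6084.7 and 5826.8 normalized counts in untreated cells of mice 1 to 4. At 1 h the values were 6480.5, 6777.6, 6601.1 and 6986.6, all above the untreated range, and at 4 h they were 6300.3, 6328.4, 6556.3 and 6199.9. The rise at 1 h was small, 1.13-fold (log2 fold change 0.17 ± 0.046, SE; adjusted p = 0.0153), and was seen in 4 of 4 mice. It missed the threshold when libraries were scaled by total count alone (0.10, adjusted p = 0.130) and without untreated replicate 1 (adjusted p = 0.0536). At 4 h the difference was 0.09 (95% interval −0.01 to 0.19, adjusted p = 0.136). Of the exon bases of *Irf5*, 14.1% are overlapped by *Tnpo3* on the opposite strand, which held 21807 counts over the series against 76029 for *Irf5*. Whether strand was used in counting is not given in the sources used here, so reads of the shared bases are uncertain.

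*Irf3* (ENSMUSG00000003184; chromosome 7, 44997648 to 45002848, plus strand), the factor that starts interferon β transcription, had 1000.9, 1041.7, 924.3 and 1022.1 normalized counts in untreated cells of mice 1 to 4. They were 848.0, 888.8, 932.8 and 1076.0 at 1 h and 924.2, 907.3, 961.8 and 903.6 at 4 h. The 3 ranges overlapped. Its log2 fold change was −0.09 (95% interval −0.24 to 0.06, adjusted p = 0.433) at 1 h and −0.11 (−0.26 to 0.04, adjusted p = 0.235) at 4 h. The value at 1 h was −0.16 without 1 h replicate 4, −0.04 without 1 h replicate 1 and −0.16 with libraries scaled by total count alone, and it passed in none of these fits.

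*Irf7* (ENSMUSG00000025498; chromosome 7, 141262706 to 141266481, minus strand), the interferon-induced amplifier of type I interferon production, was the member that differed most between mice. Untreated cells of mice 1 to 4 had 1799.3, 3437.2, 5818.7 and 1597.6 normalized counts. They had 2993.8, 3359.5, 6894.1 and 2421.4 at 1 h and 4367.6, 3892.2, 7382.2 and 5811.2 at 4 h. Mouse 3 was the highest in all 3 groups, and the groups overlapped. Mean log2 levels of the 4 mice spanned 1.24, against 0.95 for *Irf4* and at most 0.27 for each of the other members. At 4 h *Irf7* was higher in 4 of 4 mice, by 1.28, 0.18, 0.34 and 1.86 on the log2 scale. The pooled log2 fold change was 0.76 ± 0.39 (SE; 95% interval −0.08 to 1.61) and did not pass the test (adjusted p = 0.144). With the mouse as a block it was 0.92 ± 0.19 and passed (adjusted p = 0.000596). It also passed without the block once the 3 libraries of mouse 3 (1.05, adjusted p = 0.00927) or untreated replicate 3 alone (1.23, adjusted p = 0.0164) were left out. The other single libraries left out gave values down to 0.53 and adjusted p up to 0.328. At 1 h the difference was 0.31 (95% interval −0.53 to 1.15, adjusted p = 0.670), and −0.11 without 1 h replicate 3. From 1 h to 4 h it was 0.45 (adjusted p = 0.398), and 0.57 ± 0.18 with the mouse as a block (adjusted p = 0.0185; 0.103 for DESeq2 with the block). Leaving out 1 library moved the 0.45 to 0.26 (4 h replicate 3), 0.28 (1 h replicate 4) or 0.86 (1 h replicate 3).

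**Figure D3:**
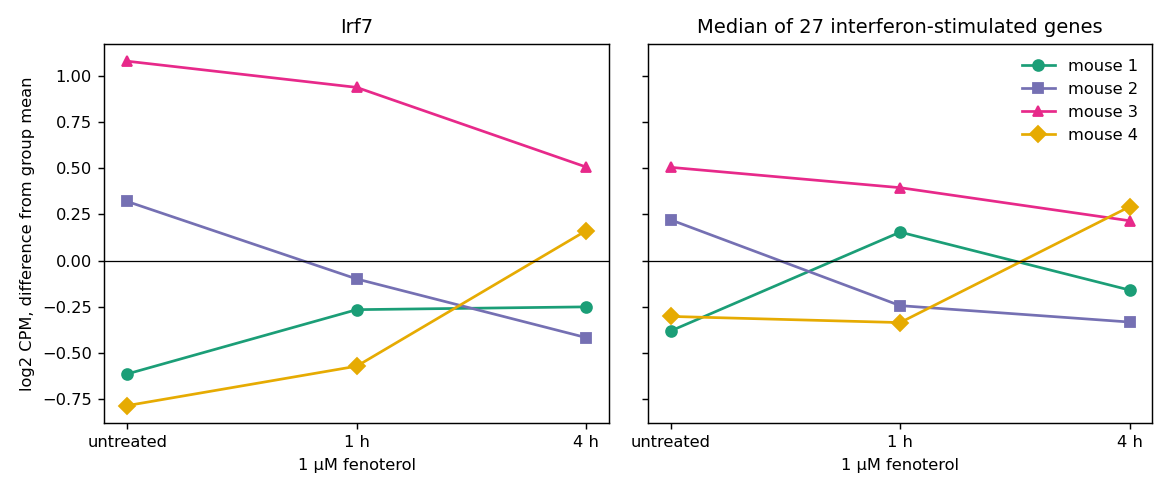
Deviation of each mouse from the mean of its own group, in log2 CPM, for Irf7 (left) and for the median of 27 interferon-stimulated genes (right) in untreated cells and at 1 h and 4 h. Mouse 3 lies highest in every group for Irf7, and for the interferon-stimulated genes mouse 4 passes it at 4 h.

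Interferon-stimulated genes stood apart by mouse as well. Of the 27 that were tested, 23 had their highest untreated value in mouse 3 and 18 had their highest 1 h value there, beside 25.9% and 22.8% of all genes tested. At 4 h 11 were highest in mouse 3 and 16 in mouse 4, beside 21.9% and 23.5% of all genes. Their median log2 change at 1 h was 0.67 in mouse 1 and −0.40, −0.05 and 0.06 in mice 2 to 4. At 4 h it was 0.25, −0.44, −0.20 and 0.57 in mice 1 to 4, so that in mice 2 and 3 it was below 0 while *Irf7* was above it. From 1 h to 4 h the medians were −0.44, −0.29, −0.27 and 0.54, beside 0.54, 0.21, 0.10 and 1.26 for *Irf7*. What set the mice apart was not tested.

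*Irf9* (ENSMUSG00000002325; chromosome 14, 55603571 to 55610030, plus strand), the DNA-binding subunit of the complex that carries the type I interferon signal, dipped at 1 h and lay close to the untreated values at 4 h. Mice 1 to 4 had 1884.1, 2383.4, 2450.1 and 2224.9 normalized counts untreated. They had 1835.7, 1689.9, 2008.7 and 1951.1 at 1 h and 2075.4, 2135.9, 2397.2 and 2248.9 at 4 h. The untreated value of mouse 1 lay inside the 1 h range, and the 1 h and 4 h ranges did not meet. The log2 fold change at 1 h was −0.26 ± 0.082 (SE; adjusted p = 0.0402). The difference between 4 h and untreated cells was −0.01 (95% interval −0.19 to 0.16, adjusted p = 0.924), and from 1 h to 4 h the level rose by 0.24 ± 0.082 (adjusted p = 0.0300). With the mouse as a block both passed at like sizes (−0.25, adjusted p = 0.00436, and 0.24, adjusted p = 0.00314). Without mouse 3 the values were −0.23 and 0.23, which missed the threshold in the unpaired fit (adjusted p = 0.114 and 0.0721) and passed with the block (0.0390 and 0.0227). In the unpaired fit the dip also missed the threshold without untreated replicate 2, 3 or 4, without 1 h replicate 1, 2 or 4 and without 4 h replicate 4 (adjusted p up to 0.123), and the rise without 1 h replicate 1 or 2 or 4 h replicate 3 or 4 (adjusted p up to 0.0951).

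*Irf2* (ENSMUSG00000031627; chromosome 8, 46739732 to 46847458, plus strand), which competes with IRF1 for its elements, had 2422.2, 2552.1, 2442.4 and 2582.1 normalized counts in untreated cells. At 1 h the 4 mice had 2430.2, 2761.0, 2196.8 and 2646.9, a range that takes in the untreated one, and at 4 h they had 2539.1, 3152.7, 2772.7 and 3066.8. The change at 1 h was 0.0052 (95% interval −0.16 to 0.17, adjusted p = 0.981). At 4 h it was 0.21 ± 0.078 (SE), just inside the threshold (adjusted p = 0.0487; 0.00483 with the mouse as a block). From 1 h to 4 h it was 0.20 (adjusted p = 0.0558), and it passed with the block (adjusted p = 0.00498), but not with the block and without mouse 3 (0.15, adjusted p = 0.0557). Without 1 h replicate 3 alone this step was 0.13 (adjusted p = 0.223). Without mouse 3 the value at 4 h was 0.22 in the unpaired fit (adjusted p = 0.0754) and 0.21 with the block (adjusted p = 0.00963). The unpaired call was also lost without any single untreated library, 1 h replicate 1 or 4, or 4 h replicate 2, 3 or 4 (adjusted p up to 0.142).

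Because counts grow with transcript length, levels of different members were compared as RPKM, counts divided by exon length in kb and by library size. In untreated cells the order of the mean RPKM was *Irf5* (105), *Irf8* (43.8), *Irf7* (42.7), *Irf1* (32.2), *Irf9* (21.2), *Irf2* (17.2), *Irf3* (14.8) and *Irf4* (4.23). Among neighbours in that order, the ranges over mice overlapped only for *Irf8* with *Irf7* and for *Irf7* with *Irf1*. At 1 h *Irf5* (118) and *Irf7* (52.9) led, and *Irf8* (26.2), *Irf1* (19.5), *Irf9* (17.7), *Irf2* (17.3), *Irf3* (13.9) and *Irf4* (0.365) followed. Of these, the ranges over mice overlapped for *Irf1* with *Irf9*, *Irf9* with *Irf2* and *Irf2* with *Irf3*. Within a library, *Irf1* was above *Irf9* and *Irf2* above *Irf3* in 4 of 4, and *Irf9* above *Irf2* in 3 of 4. At 4 h *Irf5* had 111 and *Irf7* 72.4. Then came *Irf1* (21.1), *Irf9* (20.97), *Irf8* (20.0) and *Irf2* (19.9), each of which overlapped its neighbour, ahead of *Irf3* (13.7) and *Irf4* (0.586). *Irf8* thus went from the second place by mean to a group of 4 members at like levels.

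**Figure D4:**
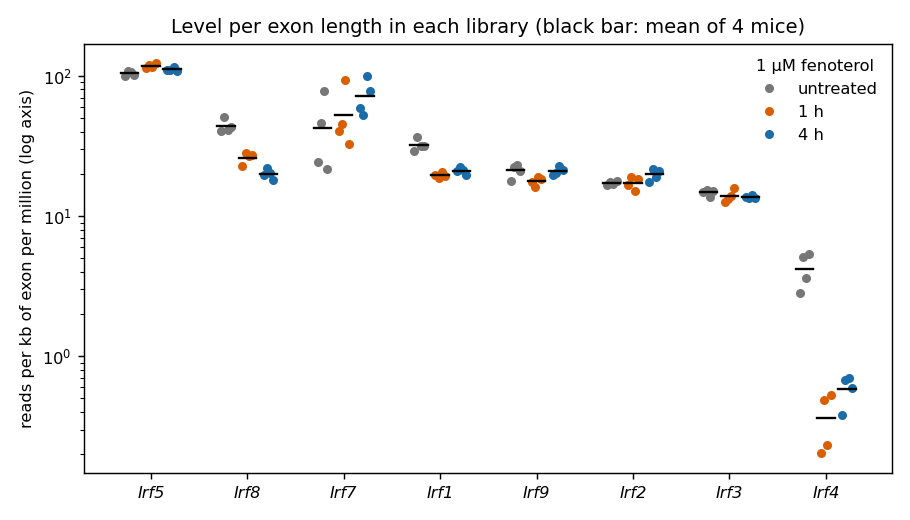
RPKM of each member (log axis) in untreated cells (grey) and at 1 h (orange) and 4 h (blue) of fenoterol, with a point for each of the 4 mice and black bars at the mean. Irf5 leads in every group at 105 to 118, Irf8 drops from 43.8 to 20.0, and Irf4 lies far below the other members in treated cells.

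For each member, the 3 genes whose log2 level followed it most closely over the 12 libraries were named, as a description, among 10289 genes. These libraries share mice and treatments. *Irf4* ran with *Ppp1r21* (Pearson r = 0.978), *Otud1* (0.977) and *Maf* (0.969), *Irf8* with *Stard8* (0.991), *Dse* (0.987) and *Cebpa* (0.984), and *Irf1* with *Themis2* (0.977), *Cited2* (0.974) and *Plekho1* (0.971). The closest to *Irf7* were *Isg20* (0.953), *Oasl2* (0.951) and *Ms4a4c* (0.951). *Irf5* was nearest to *Efhd2* (0.973), *Irf9* to *Spata7* (0.954), *Irf3* to *Anks6* (0.926) and *Irf2* to *Deptor* (0.903).

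The genes around the family were described by lists drawn up with the members. Counts called in each list stand beside 20.1% of all genes called at 1 h and 40.0% at 4 h. Among receptors and kinases that signal to IRFs, 19 were tested, and 2 rose and 5 fell at 1 h (median log2 fold change −0.09, against −0.0049 over all genes). The falls at 1 h included *Ticam1*, the adaptor TRIF (−0.83, adjusted p = 1.57e-06), and *Tlr4*, the receptor for lipopolysaccharide (−0.78, adjusted p = 3.14e-05), while *Tank*, a scaffold of the TBK1 kinase, rose by 0.70 (adjusted p = 0.000134). At 4 h 4 rose and 6 fell (median 0.04, against 0.0042 over all genes). *Tlr7*, the endosomal RNA sensor, went from a mean of 8709 to 1997 normalized counts (−2.12, adjusted p = 5.20e-10) and *Tlr9*, which senses DNA, fell by 0.93 (adjusted p = 0.00105), with *Ticam1* still lower (−0.65, adjusted p = 8.45e-06).

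Of 14 interferon ligands, receptors and JAK-STAT genes, 12 were tested. At 1 h 3 rose and none fell (median 0.13), and at 4 h 4 rose and 2 fell (median 0.23). With the mouse as a block these counts were 5 and 0 at 1 h and 6 and 3 at 4 h. *Ifngr2*, a chain of the interferon γ receptor, was higher at 1 h (0.74, adjusted p = 7.19e-07) and at 4 h (0.42, adjusted p = 9.03e-05), and *Jak2*, the kinase bound to it, rose by 0.31 (adjusted p = 0.00602) and 0.68 (adjusted p = 1.97e-06). *Ifnar1*, of the type I receptor, rose at 1 h (0.58, adjusted p = 0.00846). *Stat2* did not pass at 4 h (0.33, adjusted p = 0.137) but did with the mouse as a block (adjusted p = 0.00527). *Ifnb1* and *Ifna4* had 0 counts in every library.

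Of 13 partners and co-regulators of IRFs, 12 were tested. At 1 h 3 rose and 3 fell (median −0.16), and at 4 h 1 rose and 7 fell (median −0.43), beside 19.7% of all genes higher and 20.4% lower. The AP-1 genes went in opposite directions at 1 h, with *Junb* up by 3.49 (adjusted p = 4.12e-10) and *Jun* at −1.90 (adjusted p = 1.59e-08). *Batf2* fell at 1 h (−0.69, adjusted p = 0.00261). At 4 h *Batf*, which pairs with JUN proteins beside IRF4 and IRF8, fell by 0.72 (adjusted p = 0.000838), as did *Nfatc2* (−0.85, adjusted p = 7.75e-06), while *Junb* remained higher (0.90, adjusted p = 0.000153). Among 6 NF-κB genes, *Rel* (0.86, adjusted p = 1.51e-06) and *Nfkb2* (0.50, adjusted p = 0.000272) rose and *Nfkbia*, the inhibitor, fell at 1 h (−0.27, adjusted p = 0.0267), while *Rela*, *Relb* and *Nfkb1* lay at 0.03 each and did not pass. At 4 h *Nfkb2* (0.27, adjusted p = 0.0134) and *Rel* (0.22, adjusted p = 0.0382) were higher, and *Nfkbia* (−0.54, adjusted p = 7.68e-05) and *Nfkb1* (−0.24, adjusted p = 0.00529) were lower, with *Rela* at −0.0015 and *Relb* at −0.10, neither of which passed.

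None of the 27 tested interferon-stimulated genes passed at 1 h (median 0.09). At an unadjusted p under 0.05 there were 2, DESeq2, limma-voom and limma-trend called 0, and with the mouse as a block 1 rose and 2 fell. At 4 h 5 rose and 4 fell (median −0.03), a share near the 40.0% of all genes called, with *Cxcl10* at −2.19 (adjusted p = 0.000352), *Ccl5* at 1.32 (adjusted p = 0.0116) and *Oasl1* at 1.11 (adjusted p = 0.0172). Of the 14 genes linked to IRF1 or IRF8, 11 were tested and none passed at 1 h by edgeR, DESeq2, limma-voom or limma-trend, with 0 at an unadjusted p under 0.05 and 1 lower with the block. At 4 h 1 rose, *Il18* (0.34, adjusted p = 0.0261), and 3 fell, a share near the 40.0% of all genes called. With the mouse as a block 2 rose and 4 fell. The 3 lower in the unpaired fit were *Ciita*, the coactivator of class II histocompatibility genes (−2.29, adjusted p = 0.00519), *Cybb*, the catalytic subunit of the phagocyte oxidase (−0.76, adjusted p = 1.44e-07), and *Nlrc5* (−0.39, adjusted p = 0.0117).

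Of the 12 genes linked to IRF4, 8 were tested. At 1 h 1 rose, the histone demethylase *Kdm6b* (1.67, adjusted p = 4.74e-06), and none fell. With the mouse as a block 1 fell, the lectin *Clec10a* (adjusted p = 0.00316; −0.39 and 0.214 in the unpaired fit). At 4 h 2 rose and 2 fell. *Clec10a* (−2.50, adjusted p = 5.22e-07) and the mannose receptor *Mrc1* (−0.40, adjusted p = 0.000211) were lower. *Kdm6b* (0.50, adjusted p = 0.0343) and *Arg1* (4.03, adjusted p = 4.67e-05) were higher. The *Arg1* change rests on low counts, with means of 2.78 normalized counts in untreated cells and 48.1 at 4 h. Of the 4 cytokine genes linked to IRF5, *Il6* and *Il23a* were too low to be tested. *Il1b* rose by 4.63 at 1 h (adjusted p = 4.39e-09) and was still higher by 3.28 at 4 h (adjusted p = 1.20e-07), and *Tnf* was lower at 4 h (−1.02, adjusted p = 6.00e-05). At 1 h *Tnf* lay at −0.38 (adjusted p = 0.0862), which passed with the mouse as a block (0.0174).

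**Figure D5:**
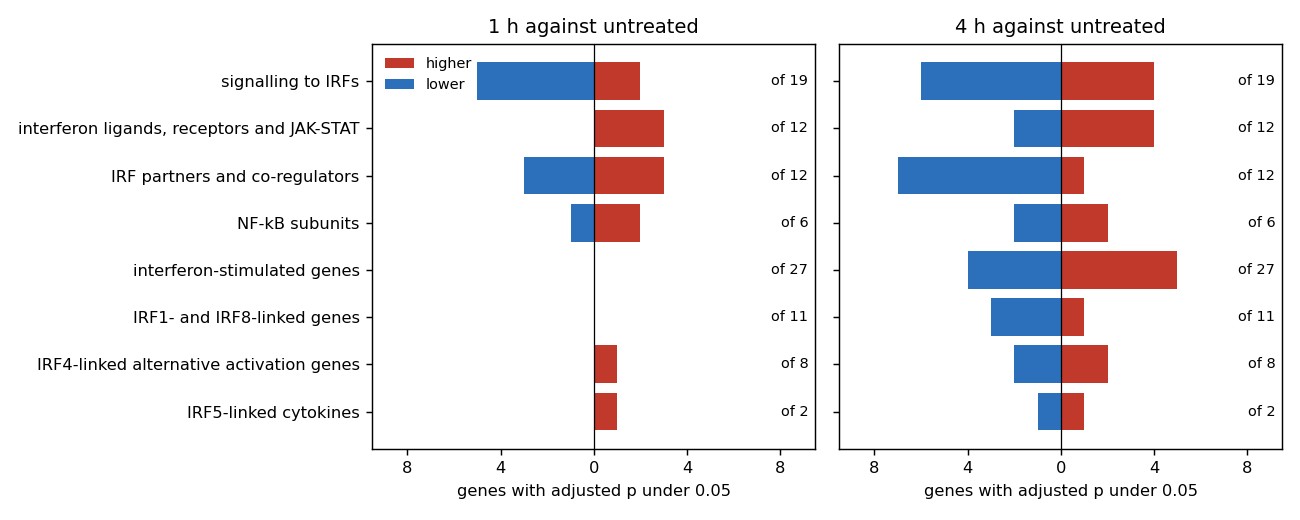
Number of genes in each list that rose (red, to the right) or fell (blue, to the left) at 1 h and 4 h against untreated cells at an adjusted p under 0.05, with the number tested at the right edge. Of the 12 partners and co-regulators 3 rose and 3 fell at 1 h and 1 rose and 7 fell at 4 h, and none of the 27 interferon-stimulated genes is called at 1 h.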

How the data were processed

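RNA was sequenced from 12 BMDM cultures of 4 mice (untreated, 1 h and 4 h of 1 µM fenoterol). The deposited values were raw read counts per gene, which the authors made from single-end 50-base reads aligned with TopHat2 2.0.11 to GRCm38 and counted with HTSeq 0.8.0. The strand option and annotation release are not given in the sources used here; 53274 of the 53379 gene identifiers matched GENCODE M21, from which symbols, lengths and overlaps were taken. Library totals were 14580533 to 24153284 (median 19843792) counts. Every per-sample column was used.

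The study's variance-stabilising tool was not installed here, so the counts were tested with edgeR 4.0.16 (R 4.3.3). Low genes were removed with filterByExpr, libraries were scaled by TMM, 1 quasi-likelihood fit covered the 12 libraries without covariates, and p-values were adjusted by Benjamini-Hochberg over 12386 genes for each contrast (threshold 0.05). Normalized counts are counts divided by the TMM-scaled library size and brought to the mean library size. SE is the log2 fold change over the root of F, and a change in 1 mouse is the log2 ratio of its normalized counts. Log2 CPM values used a prior count of 2. The script was tested on simulated data. The labels tie same-numbered libraries to 1 mouse, so the fit with the mouse as a block was run as the paired alternative. Deviations from the group mean correlated at 0.290 to 0.561 within a mouse (12 pairs) and −0.304 to 0.0912 between mice (36 pairs).

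The members and lists were chosen with earlier results of these data known. Beside the members, up to 3 called genes with the largest change and a mean normalized count of at least 50 were named per list and time, all genes of a list of 6 or fewer, and the 3 most correlated genes of each member (for 4 members only the closest is printed). *Arg1* and *Il18*, which rose at 4 h and fell outside this rule, were named in addition. Each culture is a separate mouse within a group. Promoter windows came from RefSeq (GRCm38.p6) and all 8 members had one. Alternatives were DESeq2 1.42.0, limma 3.58.1 (voom and trend), scaling by library size only, no filter, fits of the compared groups only, the block, and leaving out libraries. A few genes that the naming rule covers are not reported here.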

Additional observations from a re-analysis of the deposited data

Results flagged for a closer look

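For 2 of the 7 members other than *Irf4* the mRNA level differed between 4 h and 1 h by a direct test, beside 38.5% of all genes. With the mouse as a block 4 passed, *Irf2* and *Irf7* being higher as well, beside 46.6% of all genes. *Irf8* was lower at 4 h than at 1 h by a log2 fold change of −0.38 (edgeR adjusted p = 0.00279; lower in 4 of 4 mice), after having already fallen at 1 h. *Irf9* was higher at 4 h than at 1 h by 0.24 (edgeR adjusted p = 0.0300; higher in 4 of 4 mice), after a dip at 1 h. The first difference passed under every alternative tried, and the second passed with the mouse as a block (adjusted p = 0.00314; 0.0227 without mouse 3) but not without mouse 3 in the unpaired fit (0.0721). No library stood apart from the other 3 of its group by Dixon's criterion in any of the 24 sets of 4 values examined (8 members in 3 groups), where chance alone would give 1.2. The widest gaps were those of *Irf8* and *Irf7* at 1 h (0.801 and 0.790 of the range), left by the low *Irf8* value of mouse 1 and the high *Irf7* value of mouse 3.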

How the results depend on the processing

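Over 24 alternative settings the number of the 7 members called was 3 to 4 at 1 h and 2 to 4 at 4 h against untreated cells. At 4 h against 1 h it was 2 in the main fit, 4 with library size only, with the mouse as replicate block and with limma-voom plus the block, 1 without the 3 libraries of mouse 3, and 1 to 3 with single libraries left out (1 without 1 h replicate 1 or without 4 h replicate 3 or 4). The block moved no other count of members by over 1.5 times, and the calls it changed, for *Irf7* and *Irf2*, stand beside their results. *Irf1* and *Irf8* against untreated cells and *Irf8* from 1 h to 4 h passed in all 24. *Irf4* at 4 h ran from −3.02 to −2.69. Each of its fits reused untreated libraries of the contrast that picked the gene, so its passing in all 24 is not independent support. Small differences that were called in no setting changed sign. *Irf2* at 1 h was −0.064 with library size only, −9.5e-05 with the block, −0.00119 with limma-voom plus the block and −0.043 to 0.070 with single libraries left out. *Irf9* at 4 h was 0.0113 with library size only, 0.000237 without mouse 3 plus the block and −0.087 to 0.024 with libraries left out. *Irf3* from 1 h to 4 h was 0.0726 with library size only and −0.064 to 0.0541 with libraries left out, and *Irf5* over the same step was 0.0116 with library size only. *Irf7* at 1 h ran from −0.11 to 0.79 and the *Irf8* to *Irf1* log2 ratio at 1 h from −0.0771 to 0.0487 with libraries left out. The cause was not tested. *Irf5* at 1 h also missed the threshold with no filter (adjusted p = 0.0604), *Irf9* at 1 h in a fit of the 2 groups alone (0.0685), and *Irf2* at 4 h with limma-voom (0.0523) and limma-trend (0.0517), while *Irf7* at 4 h passed with no filter (0.0408). Of the interferon-stimulated genes, 0 to 3 were called at 1 h. The fits that leave out mouse 3, those of DESeq2 and limma-voom with the block, and the *Irf8* to *Irf1* ratio were chosen after seeing the data. With 19 to 73 raw counts in treated cells, depth limits *Irf4* more than any other member.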
